A study of Mus musculus with 2 samples.

Results

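Cytoplasmic ribosomal proteins are the proteins of the small and the large ribosomal subunit outside mitochondria, and 87 of the 27998 gene rows of the mouse matrices were taken as their genes. The members are the rows whose symbol starts with Rps or Rpl followed by a number, together with Rplp0, Rplp1, Rplp2 and Rpsa; the Rps6k kinases and symbols marked -ps were left out. Of the 87 members, 34 start with Rps (small subunit) and 53 with Rpl (large subunit). The rule uses symbols only and no expression value, although it was set with earlier results of these data known. The annotation (GENCODE M21 on GRCm38) gives 86 as protein coding and Rpl6l as a processed pseudogene, and the members lie on 19 chromosomes. The rule also takes Rps19bp1, which encodes a binding partner of Rps19 and no ribosomal protein, and it does not take Fau, which encodes a ribosomal protein fused to a ubiquitin-like part.

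The samples were CD45+ immune cells sorted from the liver of wild-type C57BL/6 mice aged 7 to 10 weeks, profiled as single cells on the 10x Genomics droplet platform. One library came from LSM cells, sorted as CD45+Lin-Sca-1+Mac-1+ (without mature-lineage marks and with the stem-cell antigen Sca-1 and the integrin chain Mac-1). The other came from CD45+Lin-CD122+CD49a+ cells, which carry CD122, a receptor chain shared by interleukin-2 and interleukin-15, and the integrin chain CD49a. There was 1 library per gate, and the sources used here do not give the number of animals behind it. Differences between classes or libraries therefore have no replicate check, and the 95% intervals below cover the counting error of UMIs (unique molecular identifiers, 1 per captured RNA molecule) only.

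Each ribosome needs 1 copy of nearly every one of these proteins, and their genes are known to be expressed together at high and nearly equal rates. Their messenger RNAs start with a pyrimidine tract (the TOP motif), through which mTOR signalling and the protein Larp1 set their translation and stability. Dividing progenitors are known for high ribosome production, whereas several members have paralogues whose expression is restricted to some tissues.

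Barcodes with at least 500 detected genes were kept, which left 3074 of 3133 in the LSM library (median 5100.5 UMIs) and 1257 of 1655 in the CD122+CD49a+ library (median 1461 UMIs). A barcode took a class when it held UMIs of at least 2 different markers of 1 list and more than of each other list. This placed 2336 barcodes (76.0%) of the LSM library and 1112 (88.5%) of the CD122+CD49a+ library in the 5 classes progenitor, dendritic, monocyte, basophil and lymphocyte, and no member is a marker. In the LSM library 335 barcodes were progenitors by markers such as Cd34, Kit and Meis1, and 1268 were dendritic. The CD122+CD49a+ library held 748 lymphocytes, 215 dendritic barcodes, 149 monocytes, and no progenitor or basophil. The libraries shared 3 barcodes.

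Short stretches of promoter are shown for the members whose levels set them apart from the rest of the family, so that paralogue and parent can be compared at the letter level. They were copied from RefSeq (GRCm38.p6) and run from 60 bases before to 20 bases after the annotated start of transcription, so that the start is the letter that follows the first 60. Capitals mark the run CTTTC or its variants with the letters CTTCC and also CTTTT, from 5 bases before to 10 after the start on the sense strand, a short form of the TOP motif, or CCGGAAG on either strand, a core site of ETS factors. Rpl22l1 (chr3:28805448-28805527, plus strand) and its parent Rpl22 (chr4:152325666-152325745, plus strand, the first of 2 entries) come first, then Rps27 (chr3:90213629-90213708, minus strand) with its copies Rps27rt (chr9:114982720-114982799, minus strand) and Rps27l (chr9:66946026-66946105, plus strand, the first of 2 entries), and last Rpl3l (chr17:24727766-24727845, plus strand, the first of 2 entries).
Rpl22: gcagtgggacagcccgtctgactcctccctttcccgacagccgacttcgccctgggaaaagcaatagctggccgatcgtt
Rpl22l1: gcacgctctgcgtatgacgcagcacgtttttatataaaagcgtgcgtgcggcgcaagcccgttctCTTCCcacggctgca
Rps27: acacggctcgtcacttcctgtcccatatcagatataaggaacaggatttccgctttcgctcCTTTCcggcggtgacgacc
Rps27rt: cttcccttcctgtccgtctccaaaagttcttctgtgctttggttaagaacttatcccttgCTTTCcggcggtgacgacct
Rps27l: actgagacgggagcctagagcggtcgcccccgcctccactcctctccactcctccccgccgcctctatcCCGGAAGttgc
Rpl3l: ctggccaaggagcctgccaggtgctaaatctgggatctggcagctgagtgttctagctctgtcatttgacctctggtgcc

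Rps27 and its copy Rps27rt share a run of 19 identical letters that begins at letter 62 of the Rps27 window and letter 61 of the Rps27rt window, whereas the longest run shared by Rps27 and Rps27l is 5 letters. Reads of Rps27 and Rps27rt could be split between the copies by the authors' counting, so their separate values are uncertain. The pyrimidine motif was found near the start in 21 of 78 member promoters (26.9%; 95% exact interval 17.5 to 38.2) and in 5.86% of all 32851 promoters of the table. On the opposite strand of the same short window the shares were 6.41% for members and 5.58% for all promoters, and on both strands together 33.3% and 11.4%. CCGGAAG stood in the 300-base window on either strand in 34.6% of member promoters and 8.86% of all promoters. The table covers 66 of the 87 members, and a match is a description of letters and not a measured binding site.

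Transcripts of the 87 genes made up 30.005% of all UMIs of kept LSM barcodes and 29.1% of those of kept CD122+CD49a+ barcodes. In the LSM library the share was 36.1% in progenitors (95% exact interval 36.0 to 36.1, n = 335 barcodes), 29.2% in both dendritic barcodes (29.1 to 29.2, n = 1268) and lymphocytes (29.0 to 29.4, n = 85), 27.3% in monocytes (27.2 to 27.3, n = 522) and 24.8% in basophils (24.7 to 25.01, n = 126). In the CD122+CD49a+ library it was 30.8% in dendritic barcodes (30.7 to 30.9, n = 215), 29.6% in lymphocytes (29.5 to 29.7, n = 748) and 24.2% in monocytes (24.1 to 24.4, n = 149). Single barcodes spread widely around these pooled shares. The median progenitor barcode had 36.2%, with the 10th percentile at 30.1% and the 90th at 41.4%, and the median dendritic barcode of the LSM library had 29.6% (20.04% to 35.6%). The ranges of all classes overlapped, from 22.5% to 49.0% in progenitors and from 14.7% to 40.2% in basophils. The small-subunit members held between 44.0% and 45.9% of the ribosomal protein UMIs in the 8 sets of library and class, a narrow span beside that of the summed share.

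**Figure D1:**
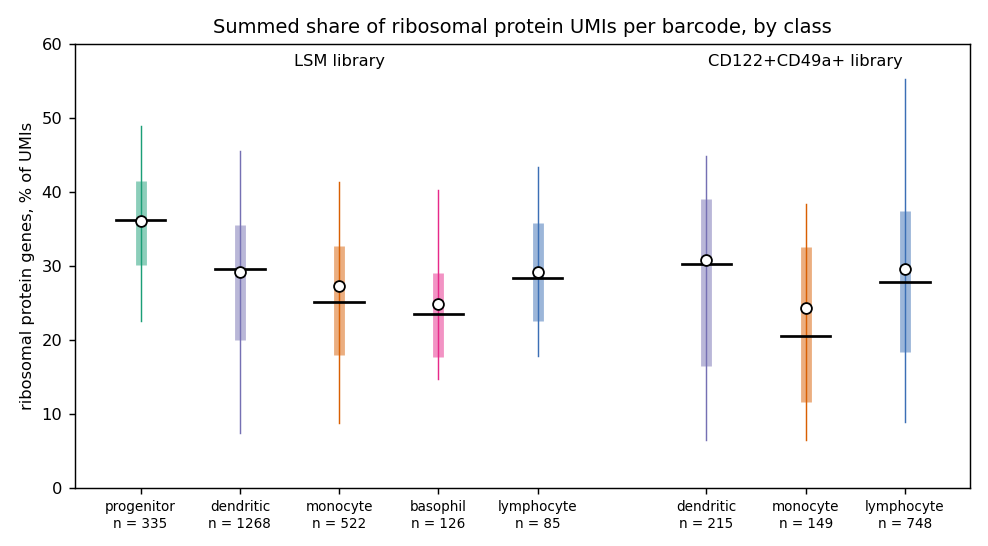
Share of each barcode's UMIs that came from the 87 ribosomal protein genes (y axis, percent), by class within each library (x axis, n = barcodes). Thin lines run from the lowest to the highest barcode, thick bars from the 10th to the 90th percentile, black bars mark the median barcode and open circles the share of the class's pooled UMIs. Progenitors stand highest, at a pooled 36.1%, and monocytes of the CD122+CD49a+ library lowest, at 24.2%.

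Against dendritic barcodes of the same library, the summed share was 1.24 times as large in LSM progenitors (95% interval of counting 1.23 to 1.24), 0.935 times in monocytes (0.932 to 0.938) and 0.852 times in basophils (0.845 to 0.858). The lymphocyte ratio in the LSM library was 1.001 (0.994 to 1.01). In the CD122+CD49a+ library the ratio was 0.788 (0.781 to 0.795) for monocytes and 0.961 (0.956 to 0.967) for lymphocytes. The ratios of a library share its dendritic barcodes as reference. When only barcodes with 1500 to 4000 UMIs were used, the progenitor ratio was 1.38 (n = 61 and 210), the LSM basophil ratio 0.982, and both lymphocyte ratios lay above 1, at 1.16 (LSM) and 1.06 (CD122+CD49a+). The CD122+CD49a+ lymphocyte ratio thus turned its direction in this range of depth, and the LSM one, which had not differed from 1 beyond counting error, lay above 1.

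Within most classes the share was higher in deeper barcodes. Dendritic barcodes of the CD122+CD49a+ library gave 11.8% at 500 to 1000 UMIs (n = 12), 23.4% at 1000 to 2000, 31.0% at 2000 to 4000 and 33.7% at 4000 to 8000. Monocytes of that library gave 13.2%, 21.1% and 29.2% in the first 3 of these bands, and lymphocytes 21.6%, 29.7%, 32.5% and 33.8% (n = 11 in the last). LSM dendritic barcodes gave 19.1% at 1000 to 2000 UMIs (n = 13), 24.7%, 29.7% and 29.5% at 8000 and more, so the deepest bands were close together. LSM lymphocytes were nearly level, with 28.5% at 1000 to 2000 UMIs and 28.4% at 2000 to 4000. The share of mitochondrial UMIs moved the other way in the dendritic barcodes of the CD122+CD49a+ library, from 7.12% in the shallowest band to 2.04% at 4000 to 8000. Barcodes under the gene minimum, which were left out, had a ribosomal protein share of 13.9% in the LSM and 20.2% in the CD122+CD49a+ library, with mitochondrial shares of 7.51% and 5.52%. The part of depth and of RNA quality in the class differences was not tested. At 2000 to 4000 UMIs, where every described class has a value, the LSM classes stood at 33.9% for progenitors, 28.4% for lymphocytes, 25.2% for basophils, 24.7% for dendritic barcodes and 23.7% for monocytes. In single bands the order of basophils, monocytes and dendritic barcodes turned: basophils lay above dendritic barcodes at 1000 to 2000 UMIs (22.6% against 19.1%) and at 2000 to 4000, and LSM monocytes did at 1000 to 2000 (21.5%), at 4000 to 8000 (30.2% against 29.7%) and at 8000 and more (29.7% against 29.5%).

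**Figure D2:**
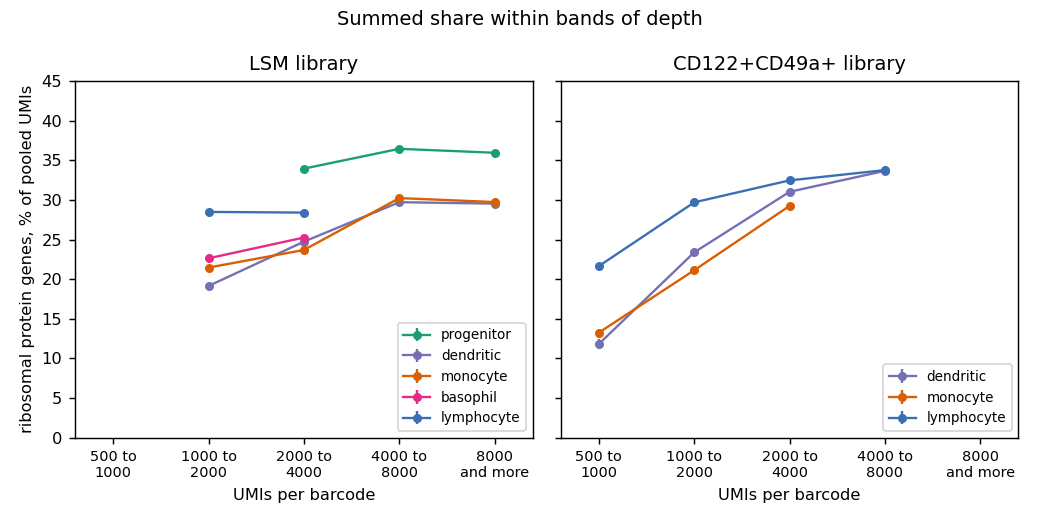
Share of pooled UMIs from the 87 genes (y axis, percent) within bands of UMIs per barcode (x axis), for the LSM library (left) and the CD122+CD49a+ library (right). Points are classes with at least 10 barcodes in the band and bars are 95% exact intervals, mostly smaller than the points. Progenitors lie above the other LSM classes in every band where they have a value, and in the CD122+CD49a+ library all 3 classes climb from the shallowest band.

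The most abundant members were largely the same in both gates. By UMIs the first 5 LSM members were Rps29, Rps24, Rpl41, Rpl39 and Rps28, and the first 5 of the CD122+CD49a+ library were Rps29, Rpl41, Rps27, Rps24 and Rpl39. Rps29 held from 3.06% of ribosomal protein UMIs in progenitors to 5.11% in CD122+CD49a+ monocytes. At the other end Rpl10l, a retrogene known from testis, had 0 UMIs in both libraries, and Rpl39l, likewise known from testis, had 14 and 5. At least 1000 UMIs were reached by 82 LSM members and by 80 members of the other library.

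Gene by gene, differences between classes were counted where the level in CPM (UMIs of the gene over all UMIs of the class, scaled to 1000000) differed at least 1.5-fold, among genes with at least 20 UMIs in both sets together. In LSM progenitors against dendritic barcodes, 77 of 84 members lay above and 7 below, 7 were at least 1.5-fold higher and 0 lower, and the members' median log2 ratio was 0.28. Over all 10140 genes, 33.2% were at least 1.5-fold higher and 16.9% lower, with a median of 0.26. Most of those genes had few UMIs. Among the 1097 genes with at least 1000 UMIs, 12.7% were higher and 21.4% lower, against 6 and 0 of 81 members, and the median of all those genes was -0.02. The members' shares past 1.5-fold lay below those of all genes. The share of all genes above the dendritic level was not counted, so the 77 of 84 members there have no background. Among barcodes with 1500 to 4000 UMIs 23 members were higher and 1 was lower, beside a median of -0.02 over all genes. The share of all genes past 1.5-fold was not counted at this depth, with another denominator or after division by the median. Member counts given for those settings, here and below, therefore have no background.

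The 7 members past 1.5-fold in progenitors were Rpl22l1, Rpl36a, Rpl6l, Rpl10a, Rpl12, Rps20 and Rps24. Rpl22l1, the paralogue of the RNA-binding large-subunit protein Rpl22, had 1891 CPM in progenitors (95% interval 1830 to 1954), 909 in dendritic barcodes, 846 in monocytes, 831 in basophils and 1310 in lymphocytes of the LSM library. Its CD122+CD49a+ levels were 1002 CPM in lymphocytes, 746 in dendritic barcodes and 446 in monocytes. The progenitor level was 2.08 times the dendritic one (1.998 to 2.17). Rpl36a, a large-subunit protein encoded on the X chromosome, was 1.73-fold higher in progenitors (1.67 to 1.79), with 2787 CPM against 1612. Rpl6l rests on 13 progenitor UMIs, and its interval includes 1 (0.822 to 3.39). Rpl10a was 1.66-fold, Rpl12 1.62-fold, Rps20 1.58-fold and Rps24 1.55-fold higher. Rpl36al and Rps27l were lower in progenitors, at 1110 CPM against 1532 and 431 against 595, both within 1.5-fold. With the UMIs outside the ribosomal protein set as denominator 20 members were past 1.5-fold higher and 0 lower, and after division by the median ratio of all genes 1 was higher and 2 were lower.

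Against dendritic barcodes, LSM monocytes had 1 member at least 1.5-fold higher (18.6% of all genes tested) and 2 lower (15.7% of all genes), among 85 members with a median log2 ratio of -0.11. The member that was higher was Rpl3l, and those that were lower were Rpl31 and Rps27l, each at -0.61 on the log2 scale. Among genes with at least 1000 UMIs 0 of 81 members were higher (9.1% of all such genes) and 2 lower (8.3%), and the median of all such genes was -0.07. LSM lymphocytes had 2 members higher (25.2% of all genes) and 4 lower (20.7%) of 84, with a median of -0.01. Rpl13a (log2 0.69) and the pseudogene Rpl6l, with 2 UMIs in lymphocytes, were higher, and Rps27l and Rpl10 (both -0.88), Rpl31 (-0.81) and Rps19bp1 (-0.65) were lower. Among genes with at least 1000 UMIs 1 of 81 members was higher (8.14%) and 3 were lower (23.9%), and the median of all such genes was -0.09. At 1500 to 4000 UMIs per barcode 6 members were higher and 5 lower.

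In basophils many members were lower than in dendritic barcodes. Of 84 members 28 were at least 1.5-fold lower than in dendritic barcodes (30.2% of all genes tested, and 45.7% of genes with at least 1000 UMIs, where 26 of 81 members were lower), and 4 were higher (21.8% of all genes). The members' share of lower genes was near that of all genes tested and below that of the abundant genes. Their median log2 ratio was -0.36, beside 0 over all genes tested and -0.49 over genes with at least 1000 UMIs. Rpl3, a large-subunit core protein, had 675 CPM in basophils and 2164 in dendritic barcodes (log2 -1.68). Rps2 (-1.21), Rps20 (-1.12), Rpl7a (-0.96) and Rpsa (-0.94) were also lower, and Rps23 (0.85), Rpl38 (0.80), Rps27 (0.65) and Rps27rt (0.61) were higher. Rps23, a small-subunit protein of the decoding centre, had 5876 CPM in basophils and 3251 in dendritic barcodes. Basophils had the fewest UMIs per barcode among the LSM classes (median 1890, against 5537 for dendritic barcodes), and with 1500 to 4000 UMIs in both classes 11 members were lower and 5 higher.

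In the CD122+CD49a+ library, monocytes against dendritic barcodes had 0 of 84 members at least 1.5-fold higher (31.4% of all genes tested) and 12 lower (15.3%), with a median log2 ratio of -0.30 beside 0.20 over all genes. Rps2 (-0.77), Rpl22l1 (-0.74) and Rpl37 (-0.68) were among the 12, and at 1500 to 4000 UMIs 2 members were lower. Of the 125 genes with at least 1000 UMIs 70 were members. Of these members 0 were higher (12% of all such genes) and 8 lower (11.2%), so the lower share was near that background. The median of all such genes was -0.23. Lymphocytes had 2 members higher (37.1% of all genes) and 5 lower (16.5%), with a median of -0.06 beside 0.31. Among genes with at least 1000 UMIs 2 of 79 members were higher (17.1% of all such genes) and 4 lower (12.2%). The median of all such genes was 0.04. Rpl12 (log2 0.86) and Rpl13a (0.67) were higher, and those lower included Rps27l (-1.39), Rpl28 (-0.75), Rpl10 (-0.73) and Rps26 (-0.67). At 1500 to 4000 UMIs 2 were higher and 2 lower. After division by the median ratio of all genes, the splits became 0 higher and 29 lower for monocytes and 0 higher and 21 lower for lymphocytes. The share of all genes past 1.5-fold after this division was not counted, so these splits are not read as particular to the members.

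To set the level of the whole family aside, each member's share of the ribosomal protein UMIs in a class was compared with its share in the other classed barcodes of the library, for members with at least 100 UMIs in those barcodes and 20 expected in the class. Between 81 and 84 members qualified in each of the 8 sets. In 7 sets at most 4.94% of them were 1.5-fold or more from the other classes, and LSM monocytes had 0. Basophils had 17 of 81 (20.99%), of which 6 were higher and 11 lower. They were led by Rps23 (2.08-fold higher, interval 1.98 to 2.19) and Rpl38 (2.02-fold, 1.94 to 2.11), and Rpl3 was 2.76-fold lower. Among barcodes with 1500 to 4000 UMIs, 11 members were past 1.5-fold in basophils. The median member lay 0.07 (LSM monocytes) to 0.23 (basophils) from the other classes on the log2 scale.

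**Figure D3:**
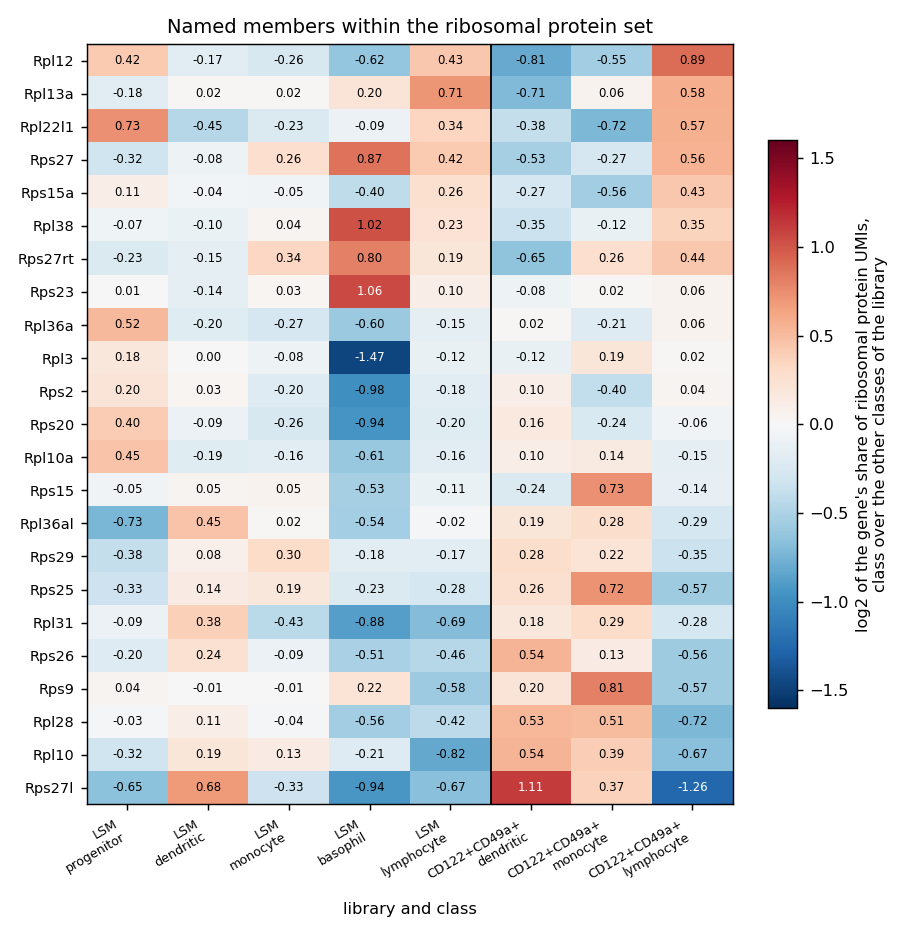
Log2 ratio of a gene's share of ribosomal protein UMIs in a class (columns, by library) to its share in the other classed barcodes of that library, for the members named by rule without Rpl3l (rows). Red is higher and blue lower, n/a marks values under the count minimum, and 0.58 corresponds to 1.5-fold. Rps27l is the strongest red of both dendritic columns (0.68 and 1.11), Rpl10 and Rps27l are past -0.58 in both lymphocyte columns, and the basophil column holds the lowest value, -1.47 for Rpl3.

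Of the members past 1.5-fold, 1 in dendritic barcodes and 2 in lymphocytes were so in the same direction in both libraries. Rps27l, a paralogue of the small-subunit protein Rps27 known as a p53 target, was higher in dendritic barcodes, and Rpl10 and Rps27l were lower in lymphocytes. Rps27l held 0.204% of ribosomal protein UMIs in LSM dendritic barcodes and 0.127% in the other LSM classes (1.61-fold, 1.52 to 1.70), and 0.146% against 0.0674% in the CD122+CD49a+ library (2.17-fold, 1.83 to 2.57). Its level in CPM was 595 in dendritic barcodes, 431 in progenitors, 391 in monocytes, 323 in lymphocytes and 229 in basophils of the LSM library. Its CD122+CD49a+ levels in CPM were 449 in dendritic barcodes, 284 in monocytes and 172 in lymphocytes. With at least 1000 detected genes per barcode the CD122+CD49a+ dendritic value was 0.19 on the log2 scale in place of 1.11, and the lymphocyte values were -0.28 (LSM, in place of -0.67) and -0.37 (CD122+CD49a+, in place of -1.26), all within 1.5-fold. With equal weight for each other class the LSM lymphocyte value was -0.34. Each class is compared with others of its own library, so a high value in 1 class lowers the values of the rest.

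Rpl10, an X-linked large-subunit protein that joins late in assembly, held 0.560% of ribosomal protein UMIs in LSM lymphocytes and 0.992% in the other classes, 1.77-fold lower. For CD122+CD49a+ lymphocytes the values were 0.447% and 0.713%, 1.59-fold lower, and -0.48 on the log2 scale when barcodes needed 1000 genes. Exons of Rpl10, Rpl12 and Rpl13a overlap small RNA genes hosted in them. Those of Rpl13a also overlap Gm45713 on the same strand, and those of Rpl12 overlap Lrsam1 on the other strand. Rpl13a lay the other way, with 0.582% against 0.356% in LSM lymphocytes (log2 0.71) and 0.899% against 0.603% in CD122+CD49a+ lymphocytes (log2 0.58). Rpl12, a protein of the stalk base, was 1.86-fold higher in CD122+CD49a+ lymphocytes (1.72 to 2.0008) and 1.35-fold higher in LSM lymphocytes. Rpl28 was 1.65-fold lower in CD122+CD49a+ lymphocytes, but -0.13 on the log2 scale when barcodes needed 1000 genes. Over 81 members the class-against-rest values of lymphocytes in the 2 libraries correlated with Pearson r = 0.86 and Spearman rho = 0.87, those of dendritic barcodes over 82 members with 0.59 and 0.51, and those of monocytes over 81 members with 0.32 and 0.34. These correlations run across genes, which are not independent replicates and share base composition and length, and they are a description only.

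**Figure D4:**
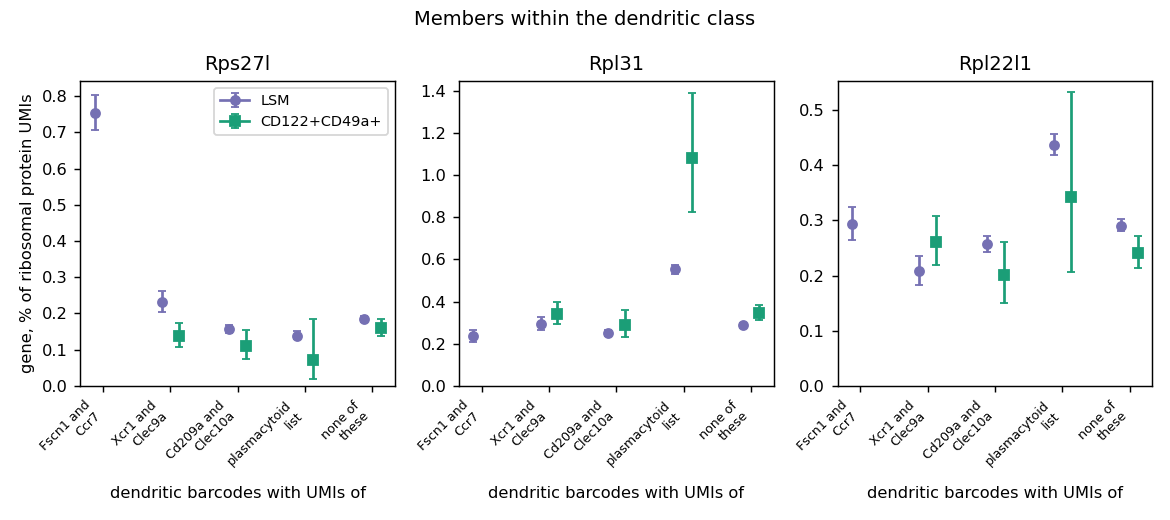
Share of ribosomal protein UMIs (y axis, percent) held by Rps27l, Rpl31 and Rpl22l1 in dendritic barcodes split by marker UMIs (x axis), for the LSM library (circles) and the CD122+CD49a+ library (squares), in sets of at least 10 barcodes. Bars are 95% exact intervals of counting. Rps27l peaks at 0.754% in LSM barcodes with Fscn1 and Ccr7, and of the sets drawn Rpl31 is highest in the plasmacytoid one of both libraries. The LSM barcodes that met more than 1 set, all placed by the plasmacytoid list, are not drawn.

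Within the dendritic class, a few members differed widely between subsets. The split was chosen after the values were seen and used UMIs of class markers. In the LSM library 142 dendritic barcodes held UMIs of both Fscn1 (an actin-bundling protein) and Ccr7 (a chemokine receptor for migration to lymph nodes), a pair known from mature dendritic cells. Their summed ribosomal protein share was 20.3% (20.2 to 20.4). Other barcodes that met only 1 set had 29.6% with Xcr1 and Clec9a (n = 44), 31.5% with Cd209a and Clec10a (n = 254) and 30.5% with the plasmacytoid list (n = 296). The plasmacytoid set held UMIs of more different markers of its list than of any other list. Barcodes with none of these had 29.2% (n = 476). At 4000 to 8000 UMIs the Fscn1 and Ccr7 barcodes had 21.6%, these other 4 sets 29.4% to 31.8%, and the 56 barcodes that met more than 1 of the sets 27.4%. Their mitochondrial share was 1.11%, and that of the other 5 sets 1.03% to 2.26%; the part of depth and RNA quality was not tested.

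Rps27l ran against that lower family level. It had 1532 CPM in Fscn1 and Ccr7 barcodes and 509 in the remaining LSM dendritic barcodes, and its share of ribosomal protein UMIs was 0.754% against 0.170%, 4.44-fold higher (4.13 to 4.77). It was detected in 127 of the 142 barcodes. Rps19 (1.80-fold) and Rpsa (1.66-fold) also held larger shares there, and 6 of 83 members held smaller ones, from 1.70-fold (Rps19bp1) to 1.503-fold lower (Rpl31), among them Rpl12, Rpl10a and Rpl4. Rps19 is a small-subunit protein known from Diamond-Blackfan anaemia, and Rpsa is the small-subunit protein also called the laminin receptor. Without the Fscn1 and Ccr7 barcodes, Rps27l in LSM dendritic barcodes was 1.34-fold above the other classes rather than 1.61-fold, below the 1.5-fold limit. The CD122+CD49a+ library had 2 such barcodes, and without them its Rps27l ratio was 2.14.

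In plasmacytoid barcodes Rpl31 was high in both libraries, and Rpl22l1 in the LSM library. Rpl31, a large-subunit protein near the exit of the nascent chain, had 1682 CPM in the plasmacytoid LSM barcodes and 854 in the remaining dendritic barcodes, and its share of ribosomal protein UMIs was 1.87-fold higher (1.78 to 1.96). In the 12 plasmacytoid barcodes of the CD122+CD49a+ library it had 60 UMIs, 1.08% of ribosomal protein UMIs (0.824 to 1.39), against 0.291% to 0.347% in the 3 other sets of at least 10 barcodes. Rpl22l1 was 1.56-fold higher in share in the plasmacytoid LSM barcodes, with 1330 CPM against 808. In the CD122+CD49a+ plasmacytoid set it held 0.342% (0.206 to 0.533), and this interval overlapped those of the other sets. Of 72 members that could be compared there, Rps20 and Rpl29 held larger and Rpl27, Rpl12 and Rpl7 smaller shares by at least 1.5-fold, named after their values were seen, and the intervals of Rpl12 and Rpl7 include 1. In the LSM plasmacytoid set Rps27l was 1.58-fold lower. Exons of Tbc1d8 overlap Rpl31 on the other strand, and no source used here states the strand setting of the counting. Tbc1d8 had 53.4 CPM in plasmacytoid LSM barcodes and 168 in those with Fscn1 and Ccr7, where Rpl31 was low. In the CD122+CD49a+ library Tbc1d8 was highest in plasmacytoid barcodes among sets of at least 10, at 244 CPM from 5 UMIs, and its part in the Rpl31 values was not tested. The 56 LSM dendritic barcodes that met more than 1 of the sets had the highest Rpl31 share, 0.793%. All of these 56 were also placed by the plasmacytoid list. In the LSM values above they count among the remaining dendritic barcodes. Without all 352 plasmacytoid barcodes, these 56 included, the Rpl31 ratio of LSM dendritic barcodes to the other classes was 1.02 rather than 1.301.

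Progenitors were uniform by comparison. Those with Dntt, the lymphoid DNA polymerase, and no UMI of Meis1, Hlf or Mecom (n = 38) had a summed share of 35.6%, those with Meis1, Hlf or Mecom and no Dntt (n = 140), genes known from stem cells, had 36.1%, and the remaining 157 had 36.1%. In these 3 sets 0 of 81 to 83 members reached 1.5-fold against the other progenitors, and Rpl22l1 held 0.526%, 0.529% and 0.520% of ribosomal protein UMIs. CD122+CD49a+ lymphocytes with no UMI of Cd3d, Cd3e or Cd3g (n = 40) had a share of 27.4%, against 29.7% in the 708 with one. Rpl31 (1.56-fold, 1.23 to 1.95) and Rps12 (1.52-fold, 1.299 to 1.76) held larger shares in the 40, of 80 members. Their median depth was 1039 UMIs against 1303.5, and the part of depth was not tested.

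Paralogues were then set beside their parents within each class, so that the level of the whole family drops out. Rpl22l1 made up 40.2% of the UMIs of the pair Rpl22 and Rpl22l1 in progenitors (39.2 to 41.2), 35.3% in LSM lymphocytes, 30.5% in basophils, 27.7% in monocytes and 26.6% in dendritic barcodes. Among CD122+CD49a+ barcodes it made up 31.3% in lymphocytes, 22.3% in dendritic barcodes and 20.2% in monocytes, so lymphocytes stood above dendritic barcodes and monocytes in both libraries and the intervals did not overlap. Rpl22 itself had between 1764 and 2812 CPM over the 8 sets, a smaller span than the 446 to 1891 of Rpl22l1. As a share of ribosomal protein UMIs, Rpl22l1 was 1.66-fold higher in progenitors (1.601 to 1.73). Among barcodes with 1500 to 4000 UMIs this was 0.47 on the log2 scale, short of the 1.5-fold limit. With equal weight for the other classes it was 0.58, just under that limit.

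Rpl36al, the paralogue of Rpl36a, made up 28.5% of its pair in progenitors (27.4 to 29.5) and 41.0% to 51.1% in the other 7 sets. Exons of Rpl36al overlap Gm49383 on the same strand, and those of Rpl22l1 overlap Gm33051 on the other strand. The part of these overlaps in the values was not tested. In CPM, Rpl36a was higher in progenitors than in the other 7 sets (2787 against at most 1612), and Rpl36al was within the range of the rest. As a share of ribosomal protein UMIs Rpl36al was 1.66-fold lower in progenitors, and -0.54 on the log2 scale with equal weight for the other classes. Rps27l ranged from 8.73% of its pair with Rps27 in LSM dendritic barcodes to 1.46% in CD122+CD49a+ lymphocytes. Rps27rt held 3.01% to 6.29% of its pair with Rps27, and how reads were divided between these copies was not tested. Rpl7l1, a homologue of Rpl7 known in ribosome assembly, held 1.13% to 4.60% of its pair, lowest in basophils with 5 UMIs.

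**Figure D5:**
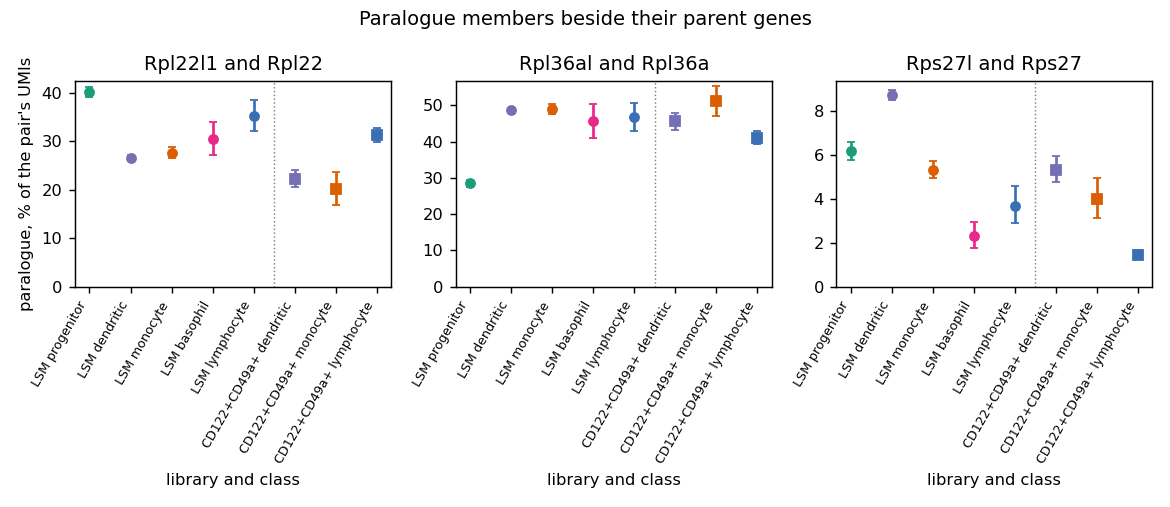
Share of a pair's UMIs that came from the paralogue (y axis, percent) for 3 pairs, by library and class (x axis; circles LSM, squares CD122+CD49a+, dotted line between libraries). Bars are 95% exact intervals of counting. Progenitors have the highest share of Rpl22l1 (40.2%) and the lowest of Rpl36al (28.5%), and dendritic barcodes the highest share of Rps27l in each library.

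Rpl3l, the paralogue of Rpl3 known from heart and skeletal muscle, had nearly all of its UMIs in monocytes. It lies at chr17:24727820-24736143 on the plus strand with no exon shared with another annotated gene. Of its 116 UMIs in the LSM library 106 came from monocytes, where 78 of 522 barcodes (14.9%) held one. Dendritic barcodes, deeper at the median (5537 UMIs against 2754), held 6 UMIs in 6 of 1268 barcodes (0.473%), and progenitors (0 of 335, which allows a share of up to 0.896%), basophils (0 of 126, up to 2.38%) and lymphocytes (0 of 85, up to 3.53%) held none. These limits count 3 barcodes with a UMI and say nothing of barcodes that express the gene below detection. All 6 UMIs of the CD122+CD49a+ library came from monocytes, in 5 of 149 barcodes. The level in LSM monocytes was 53.9 CPM (44.2 to 65.2), 67.8-fold above dendritic barcodes (30.1 to 189), and 2.80 UMIs of Rpl3l stood beside every 100 of Rpl3.

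In LSM monocytes with a UMI of Ace, Treml4, Cd300e or Adgre4, genes known from patrolling monocytes, Rpl3l had 92.7 CPM (75.8 to 112) in 20.4% of 373 barcodes. In those without (n = 149) it had 2.37 CPM, from 2 UMIs, although they were deeper, with a median of 5660 UMIs against 2532. In the CD122+CD49a+ library 5 of 86 monocytes with such a UMI held Rpl3l, and 0 of 63 without, which allows a share of up to 4.76%. This split was added after the values were seen. Macrophage markers such as C1qa summed to 508 CPM in LSM monocytes (6 of 8 with a UMI, Vsig4 and Marco at 0), 1.59 CPM in dendritic barcodes and at most 4.25 CPM in the other LSM classes, and to 419 CPM in CD122+CD49a+ monocytes (3 of 8), and their part in the Rpl3l signal was not tested.

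Between the libraries, the summed share of the CD122+CD49a+ library was 1.06 times that of the LSM library in dendritic barcodes (1.0503 to 1.06), 0.889 times in monocytes (0.882 to 0.896) and 1.01 times in lymphocytes (1.004 to 1.02). Gate and library cannot be told apart here. With the mean of single-barcode shares the dendritic and lymphocyte ratios were 0.997 and 0.987, close to 1, and no interval was computed for them. At 1500 to 4000 UMIs the monocyte ratio was 1.16 and so turned its direction. At that depth the dendritic and lymphocyte ratios were 1.23 and 1.13.

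Single members differed between libraries by more than the sum did, but a smaller share of members than of all genes passed 1.5-fold. In dendritic barcodes 5 of 84 were at least 1.5-fold higher in the CD122+CD49a+ library (32.7% of all genes tested) and 3 lower (23.5%), and with at least 1000 UMIs 4 of 81 were higher (6.53%) and 2 lower (36.6%). In monocytes 4 were higher (36.6%) and 14 lower (23.4%), and in lymphocytes 7 were higher (41.3%) and 4 lower (16.6%). With at least 1000 UMIs 3 of 79 were higher (10.8%) and 11 lower (33.3%) in monocytes. In lymphocytes 5 of 79 were higher (14.5%) and 3 lower (17.3%) at that minimum. After division by the median ratio of all genes the splits were 4 and 5, 4 and 23, and 4 and 21. At 1500 to 4000 UMIs they were 16 and 2 in dendritic barcodes, 14 and 3 in monocytes, where the balance turned, and 7 and 1 in lymphocytes. The median log2 ratio of all genes moved as well, from 0.20 to -0.09 in monocytes. It moved from 0.10 to -0.14 in dendritic barcodes and from 0.31 to 0.11 in lymphocytes. No share of all genes was counted for these alternatives, so the splits are not read as particular to the members. Rps15 had 644 CPM in LSM and 1325 in CD122+CD49a+ dendritic barcodes, 613 and 1814 in monocytes, and 591 and 1366 in lymphocytes. Rpl23a was likewise higher in all 3 classes (log2 1.19, 1.37 and 1.12), as were Rpl13a (0.66, 0.96 and 0.64) and Rps27rt (0.70, 0.81 and 1.03). Rpl3 was lower in all 3 (-0.94, -0.86 and -0.79), and so was Rps3a1 (-0.61, -1.03 and -0.67). Dendritic barcodes, monocytes and lymphocytes share 1 pair of libraries, so 3 values of a gene are no 3 independent measurements.

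Other genes of the pathway were read from lists. Of 25 ribosome biogenesis genes, 12 were at least 1.5-fold higher and 1 lower in LSM progenitors than in dendritic barcodes (33.2% and 16.9% of all genes tested), with a median log2 ratio of 0.58 beside 0.28 for the ribosomal protein genes and 0.26 for all genes. Npm1, a nucleolar chaperone, had 1479 CPM against 865, Ncl (nucleolin) 556 against 294 and Nop56, a core protein of the small nucleolar particles, 114 against 54.4. In basophils 1 of 24 was higher and 20 were lower (21.8% and 30.2% of all genes), with a median of -1.23, and Npm1 had 416 CPM. Mitochondrial ribosomal proteins, the separate family that translates mitochondrial genes, had a median of 0.10 in progenitors with 6 of 76 higher and 1 lower, and -0.89 in basophils with 2 higher and 51 lower. Of 20 translation factors and similar transcripts 1 was higher (Eif4a2) and 0 were lower in progenitors, with a median of 0.27 close to that of the ribosomal proteins, and in basophils 1 was higher and 6 were lower (median -0.30). In LSM monocytes the 3 medians were -0.21 for biogenesis, -0.15 for mitochondrial ribosomal proteins and -0.02 for translation factors. Between the libraries, 2 of 76 mitochondrial ribosomal proteins were higher and 28 lower in CD122+CD49a+ dendritic barcodes (32.7% and 23.5% of all genes) and 0 of 73 were higher and 38 lower in monocytes (36.6% and 23.4%). In lymphocytes 9 of 72 were higher and 15 lower, the latter near the background (41.3% and 16.6% of all genes). Among genes with at least 1000 UMIs, 36.6% were lower in dendritic barcodes, 33.3% in monocytes and 17.3% in lymphocytes. The 28 of 76 in dendritic barcodes were thus near the share of abundant genes. The list was not counted at that minimum. Of 10 regulators 2 were higher and 1 was lower in progenitors. Myc had 41.0 CPM in progenitors and 22.5 in dendritic barcodes, Mycl, the gene that was lower, had 2.63 and 29.8, and Mycn, the other that was higher, was a progenitor marker and is not read. Larp1 (log2 -0.28) and Mtor (-0.14) were within 1.5-fold.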

How the data were processed

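Gene by barcode matrices of raw UMI counts for 2 libraries were deposited by the authors; software version 3.0.1 stands in the matrices per the file headers. Per the submitters' processing notes, STAR, Seurat 2.3.0 and build GRCm38 were involved, in a role and order those notes do not state. How barcodes were selected and the strand setting of counting are not stated in the sources used. Members and lists were chosen with earlier results of these data known.

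From the counts, UMIs were summed over barcodes of a class. Barcodes needed 500 detected genes, and a class needed 2 different markers and more than each of the other 9 lists (10 lists compete, conventional and plasmacytoid dendritic both giving dendritic; ties have no class; no doublet caller was run). In the LSM library 277 barcodes were ties, 363 had under 2 markers and 98 fell to other lists; in the CD122+CD49a+ library the numbers were 53, 87 and 5. Classes under 20 barcodes were not described. With 1 library per group there is no test across samples. Shares carry Clopper-Pearson intervals, ratios exact conditional intervals, both at 95% and for counting error only. Zero counts took a floor of 3 UMIs, and no difference was read in the direction the floor alone gives. Members named are the 5 with most UMIs, those at 0, the paralogues with their parents, the 3 highest and 3 lowest per class within the family, and those past 1.5-fold in both libraries; others were named after their values were seen. Some genes are counted but not reported here by name. Exons of 28 members overlap another gene on the same strand and of 19 on the other strand, and 16 pseudogene rows that were left out hold 0.0481% (LSM) and 0.106% (CD122+CD49a+) as many UMIs as the members. Procedures were tested on simulated data. Python 3.11.15, numpy 2.4.6, scipy 1.17.1, pandas 2.3.3 and matplotlib 3.10.9 were used.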

Additional observations from a re-analysis of the deposited data

How the results depend on the processing

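Shares below are percentages of UMIs, and counts are members past 1.5-fold, without a share of all genes counted beside them. Causes were not tested. No paired analysis was possible because there is 1 library per group. Leaving out barcodes over 10% mitochondrial UMIs, or those shared by both libraries, kept every share, ratio and count on its side. Under the alternatives below, where they gave a value, the progenitor ratio was above 1 and the monocyte and basophil ratios to dendritic barcodes were below 1; in single depth bands, given above, LSM monocytes and basophils also lay above dendritic barcodes.

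With at least 1000 detected genes the shares were 29.3 (LSM dendritic), 28.1 (LSM monocyte), 31.7 (CD122+CD49a+ dendritic), 26.4 (monocyte) and 29.8 (lymphocyte). Members past the fold numbered 1 and 2 for LSM monocytes and lymphocytes, 4 and 2 for those of CD122+CD49a+, and 5 and 6 between libraries in dendritic barcodes and lymphocytes. Within the family they numbered 1 in LSM dendritic barcodes, 1 in LSM lymphocytes, and 1 and 2 in CD122+CD49a+ dendritic barcodes and monocytes. Basophils gave no value.

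With 3 markers the LSM shares were 36.2 (progenitor), 28.8 (dendritic), 26.5 (monocyte) and 24.1 (basophil), those of CD122+CD49a+ 30.5 (dendritic), 23.8 (monocyte) and 29.7 (lymphocyte), and the LSM lymphocyte ratio 1.01, above 1 beyond counting error.

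With no UMI of another list, progenitors gave no value (under 20 barcodes). LSM shares were 25.02 (dendritic), 24.2 (monocyte), 24.0 (basophil) and 28.6 (lymphocyte), those of CD122+CD49a+ 32.1, 19.0 and 29.9 (dendritic, monocyte, lymphocyte), and the LSM lymphocyte ratio 1.14. Counts were 14 for LSM lymphocytes, 52 for CD122+CD49a+ monocytes, and 21 and 34 between libraries in dendritic barcodes and monocytes. Within the family they were 2 and 8 in LSM monocytes and lymphocytes, and 21 and 7 in those of CD122+CD49a+.

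Without the deepest 5% of barcodes the LSM shares were 36.2, 29.1, 27.0, 24.1 and 28.9 (progenitor, dendritic, monocyte, basophil, lymphocyte), and the CD122+CD49a+ shares 29.4 (dendritic) and 29.3 (lymphocyte). The CD122+CD49a+ lymphocyte ratio was 0.996, no longer apart from 1, with counts of 5 for monocytes and, within the family, 7 for lymphocytes.

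In the same order of classes, a denominator without mitochondrial, Jchain and immunoglobulin UMIs gave LSM shares of 36.9, 29.6, 27.6, 25.1 and 29.7, and 31.6, 24.95 and 30.5 for CD122+CD49a+ (dendritic, monocyte, lymphocyte). The mean over barcodes gave 35.9, 28.7, 25.2, 23.6 and 28.5, then 28.6, 21.6 and 28.2. It took the ratios between libraries from above 1 to just below, at 0.997 (dendritic) and 0.987 (lymphocyte), without an interval. Leaving out paralogues and Rps19bp1 gave 35.7, 28.8, 27.0, 24.6 and 28.9, then 30.5, 24.0 and 29.3.

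Barcodes of 1500 to 4000 UMIs, an alternative planned for the ratios and extended to shares and counts after seeing the data, gave 33.9, 24.6, 23.5, 24.2 and 28.6, then 30.3, 27.3 and 32.2. It reversed the CD122+CD49a+ lymphocyte ratio to 1.06 and the monocyte ratio between libraries to 1.16, and gave 1.16 for LSM lymphocytes. Within the family 11 basophil, 4 LSM monocyte, 2 CD122+CD49a+ dendritic and 8 CD122+CD49a+ lymphocyte members passed.

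At 2-fold, counts were 1, 1, 7 and 1 for LSM progenitors, monocytes, basophils and lymphocytes, 0 and 1 for CD122+CD49a+ monocytes and lymphocytes, and 3, 5 and 4 between libraries (dendritic, monocyte, lymphocyte). Division by the median ratio of all genes gave 3 for progenitors, 29 and 21 for CD122+CD49a+ monocytes and lymphocytes, and 25 between libraries in lymphocytes. UMIs outside the set as denominator gave 20 for progenitors and 22 for CD122+CD49a+ monocytes. Equal weight for each other class gave 7 in CD122+CD49a+ lymphocytes within the family. Of the values of single named genes under alternatives, 366 stayed on their side of 1.5-fold, 28 fell short, 21 newly passed and 0 reversed. Depth limits the rare members, which have few UMIs, and the small classes.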
